A study of Mus musculus with 2 samples.

Results

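The Gnas imprinted cluster was followed through 580 CpG cytosines out of the 1850635 that passed the same filter across the mouse genome. The rule took them by position and read depth and not by methylation level, though it was set with earlier results of these data known. A cytosine was taken if it lay in the bodies of Gnas (chr2:174284320-174346744, plus strand, GRCm38) or Nespas (chr2:174281237-174295436, minus strand) or within 1 kb of either gene, had at least 5 reads in each library, and was outside the CCGG and TCGA sites at which the DNA was cut. The DNA came from myotubes, the fused muscle cells made here by differentiating mouse C3H myoblasts, that had received either an siRNA that lowers the non-coding RNA H19 (siH19) or a control siRNA (siCon). Genomic DNA was collected 48 h later and profiled by reduced representation bisulfite sequencing, in which unmethylated cytosine is read as T and methylated cytosine as C on short restriction fragments. Each siRNA had 1 library, so there is no replicate error, every test below compares 2 libraries and not 2 treatments, and every interval covers the counting of reads only. H19 RNA was not analysed here, so the knockdown was not checked. The libraries held 104999613 reads over cytosines for siCon and 106372792 for siH19, and the members had a median depth of 28 and 27 reads.

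Imprinted genes are transcribed from the copy inherited from a single parent, and the choice is marked by DNA methylation set in the egg or the sperm. Gnas encodes the stimulatory G protein alpha subunit, which links hormone receptors to adenylyl cyclase and so to cyclic AMP, and it is a complex of alternative first exons with different imprints. The Nesp start makes the neuroendocrine secretory protein from the maternal copy and is methylated on the paternal copy. The antisense non-coding RNA Nespas, the extra-large protein from the Gnasxl start and the non-coding transcripts from exon 1A come from the paternal copy, and their starts carry methylation on the maternal copy. The start at Gnas exon 1, which makes the G protein subunit itself, is known to be free of methylation on both copies. Reads were not assigned to a parental copy, so a start methylated on a single copy is seen here only as an intermediate level.

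The 580 cytosines sat on 320 CpGs, 260 of them measured on both strands, and on 66 restriction fragments. The genome holds 1499 CpGs in the interval, or 2998 cytosines, of which 1008 had a read, 769 had at least 5 reads in each library, and 189 of these were left out because they lay in a cut site. Each annotated start was given a window of 1 kb on either side. The windows held 80 cytosines at Nesp, 3 at Nespas, 46 at Gnasxl, 70 at exon 1A and 152 at Gnas exon 1, and 229 lay elsewhere. Of the members, 379 were in annotated exons.

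Stretches next to each start are printed from GRCm38 on the plus strand, because their methylation differed so widely between starts of a single gene. Capitals mark the CpG bases that were members. The Nesp stretch, chr2:174284727-174284886, lies in the second Nesp exon. The Nespas stretch, chr2:174295464-174295562, lies just upstream of the Nespas start, and holds every member of that window. The Gnasxl stretch, chr2:174298266-174298425, is in the long first Gnasxl exon. The exon 1A stretch, chr2:174327942-174328101, begins at the base after exon 1A, and the Gnas exon 1 stretch, chr2:174330466-174330625, is in the first intron after Gnas exon 1.
Nesp: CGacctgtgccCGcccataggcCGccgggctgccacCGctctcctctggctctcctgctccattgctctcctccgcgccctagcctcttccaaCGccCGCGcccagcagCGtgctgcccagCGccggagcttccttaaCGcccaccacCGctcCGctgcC
Nespas: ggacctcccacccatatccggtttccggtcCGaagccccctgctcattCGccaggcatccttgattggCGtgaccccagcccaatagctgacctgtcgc
Gnasxl: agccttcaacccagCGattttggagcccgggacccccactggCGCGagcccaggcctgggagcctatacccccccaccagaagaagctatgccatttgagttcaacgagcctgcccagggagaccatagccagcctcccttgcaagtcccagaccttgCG
exon 1A: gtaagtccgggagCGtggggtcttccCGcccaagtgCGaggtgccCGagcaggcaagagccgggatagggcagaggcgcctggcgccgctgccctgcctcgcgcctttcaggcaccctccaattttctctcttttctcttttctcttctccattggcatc
Gnas exon 1: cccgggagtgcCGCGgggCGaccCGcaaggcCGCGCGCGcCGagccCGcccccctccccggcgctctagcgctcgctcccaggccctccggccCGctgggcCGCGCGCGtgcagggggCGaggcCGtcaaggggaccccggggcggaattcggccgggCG

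The share of methylated reads over the 25 member cytosines of the Nesp stretch was 40.0% in siCon and 40.3% in siH19. It was 33.9% and 31.1% over the 8 of the Gnasxl stretch, and 10.8% and 28.8% over the 8 of the exon 1A stretch. Those last 8 lie on a single fragment and share reads, at most 24 and 52 on its plus strand. That strand had the largest rise among the fragment strands of the exon 1A window, which as a whole was at 28.5% and 32.8%. In the Gnas exon 1 stretch, with the most CpGs, the share was 0% in siCon and 1.85% in siH19. Cytosines of a fragment share reads, and counting each fragment strand once leaves 103 reads in siCon, of which 0 allows up to 2.91%, so the libraries could not be told apart there. The 5 starts differed in base content as well. The exon 1 window held the most CpGs, at 71.8% GC. The other windows held 108 CpGs at Nesp, 78 at Nespas, 101 at Gnasxl and 138 at exon 1A, at 53.6% to 58.7% GC, and the median over the start windows of 55411 genes was 25 CpGs and 46.0% GC.

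**Figure D1:**
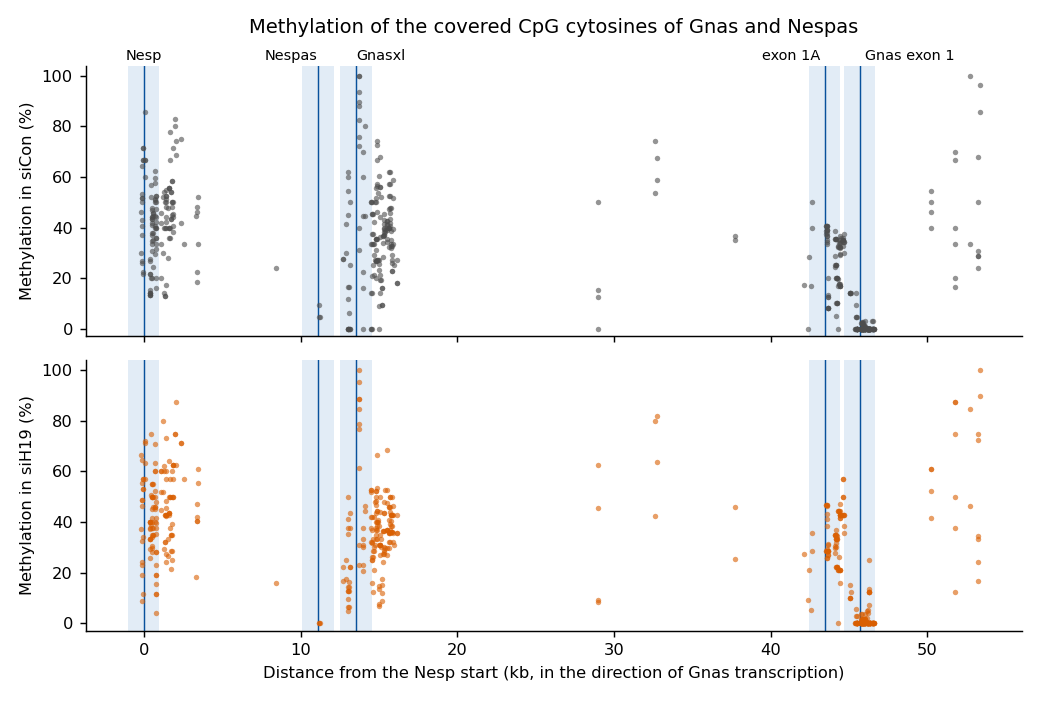
Methylation level (%, vertical axis) of each of the 580 cytosines against its distance from the Nesp start (kb), with siCon above and siH19 below. Shaded bands are the start windows. In each library most cytosines near Nesp, Gnasxl and exon 1A lie between 10% and 70%, and most near Gnas exon 1 lie at or close to 0.

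Intermediate methylation was the commonest state outside Gnas exon 1. Of the 580 members, 206 (35.5%) were between 30% and 70% in both libraries, against 10.8% of all cytosines in the genome. Those 206 were 42 at Nesp, 12 at Gnasxl, 25 at exon 1A and 127 outside the start windows. Of the 151 that were under 10% in both libraries, 140 were at Gnas exon 1.

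The Nesp window, methylated on the paternal copy in imprinted tissue, was at an intermediate level and differed little between the libraries. Its share of methylated reads was 41.4% in siCon (Wilson 95% interval 39.6% to 43.3%) and 38.4% in siH19 (36.6% to 40.3%). Single cytosines ranged from 13.3% through a median of 41.3% to 85.7% in siCon, and from 3.85% through 40.0% to 75.0% in siH19, so the libraries overlapped over most of their range. When each cytosine was given the same weight in both libraries, the difference, siH19 minus siCon, was -0.354 percentage points (95% interval -3.06 to 2.36, Cochran-Mantel-Haenszel chi-square test stratified by cytosine, adjusted p = 1 over 19475 promoter windows and these regions). The strands went opposite ways, with a difference of 6.89 points on the plus strand (2.82 to 11.0) and -5.77 points on the minus strand (-9.35 to -2.18). The level was similar beyond the window. The 62 cytosines between the end of the second Nesp exon and the Nespas start, inside Nespas, were at 47.2% and 43.4%.

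A single restriction fragment of 67 bp in the second Nesp exon, which Nespas overlaps on the other strand, held the largest drop of the Nesp window. On its minus strand the equal-weight level over 7 cytosines was 45.3% in siCon, with up to 38 reads, and 14.9% in siH19, with up to 52. On its plus strand, at the same 7 CpGs, it was 34.3% and 37.1%. Reads of the minus strand thus set this fragment apart and those of the plus strand did not.

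The Nespas window was thinly covered. Its 3 cytosines all lay on the plus strand of a single fragment, 58 to 96 bp upstream of the start. In siCon 2, 1 and 1 of 21 reads were methylated at each in turn, a share of 6.35%. In siH19 none of 8 reads was methylated at any of the 3, and since the 3 share these reads, 0 of 8 allows a share of up to 37.5%. The difference of -6.35 points had an adjusted p of 0.851 (Cochran-Mantel-Haenszel chi-square test), and with 3 cytosines on the same reads the window cannot show a small difference. These low levels contrast with the intermediate ones at the neighbouring starts, but 75 of the 78 CpGs of the window held no member. At 2 of those 75, reads were present but the cytosine lay in a cut site.

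At Gnasxl the cytosines were the most varied. They ranged from 0% through a median of 32.2% to 100% in siCon and from 4.76% through 32.7% to 100% in siH19. A pair of levels stood out within the window. From 167 bp after the start, 5 CpGs were at 81.4% and 70.3% on the plus strand and at 73.1% and 75.5% on the minus strand. From 492 bp before it, 5 CpGs were at 2.78% and 10.8% on the plus strand and at 6.89% and 12.5% on the minus strand. The fragment upstream had up to 12 plus-strand reads in siCon and 62 in siH19, while the downstream fragment had up to 17 and 14. Summing reads therefore gave 42.7% in siCon and 35.2% in siH19, and equal weights gave 39.1% and 39.5%. The equal-weight difference was 0.450 points (-3.69 to 4.59, adjusted p = 1, Cochran-Mantel-Haenszel chi-square test), while summed reads gave -7.57 points (Fisher's exact test, adjusted p = 0.0147).

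The long Gnasxl first exon, which encodes the protein's own amino-terminal part and runs past the window, carried 135 cytosines. They were at 38.3% in siCon and 37.6% in siH19 by summed reads, and equal weights put siH19 at -0.521 points from siCon (-2.54 to 1.50). The longest run of cytosines that stayed between 30% and 70% in both libraries lay there. It had 16 cytosines over 135 bp (chr2:174299993-174300127) at 40.7% and 40.9%.

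Exon 1A was the start whose window passed the test. Methylation there was 28.5% in siCon (26.7% to 30.3%) and 32.8% in siH19 (31.0% to 34.7%). Levels of single cytosines ran from 0% through a median of 29.4% to 50% in siCon and from 0% through 31.1% to 47.2% in siH19. With equal weights the level was higher in siH19 by 5.02 points (2.34 to 7.69, p = 0.000295, adjusted p = 0.0108, Cochran-Mantel-Haenszel chi-square test). Of the 70 cytosines, 51 were higher in siH19, 18 were lower and 1 was equal. Genome-wide, 5.69% of promoter windows passed the same test and 3.91% passed it with siH19 higher, and 92.1% of windows had a smaller difference in either direction. Those windows had a median level of 3.86% in siCon and 3.83% in siH19, and 51.0% of them were under 5% in both. Windows at a level like that of exon 1A were not compared apart, so these shares are not matched for level.

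The rise was uneven within exon 1A's surroundings. Over the 16 cytosines of exon 1A itself the level was 38.1% and 35.5%, a difference of -2.16 points (-7.87 to 3.54). Just after the exon, on the fragment of the printed stretch, the 4 plus-strand cytosines were at 8.33% in siCon, with up to 24 reads, and at 29.0% in siH19, with up to 52. The minus strand of that fragment had 14.5% and 28.6%. Farther on, 974 bp after the start, 16 plus-strand cytosines that continue past the window were at 34.1% and 44.8%. The plus strand as a whole was higher by 8.36 points (4.67 to 12.1) and the minus strand by 0.757 points (-3.09 to 4.60). Whether the strands differed was not tested.

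**Figure D2:**
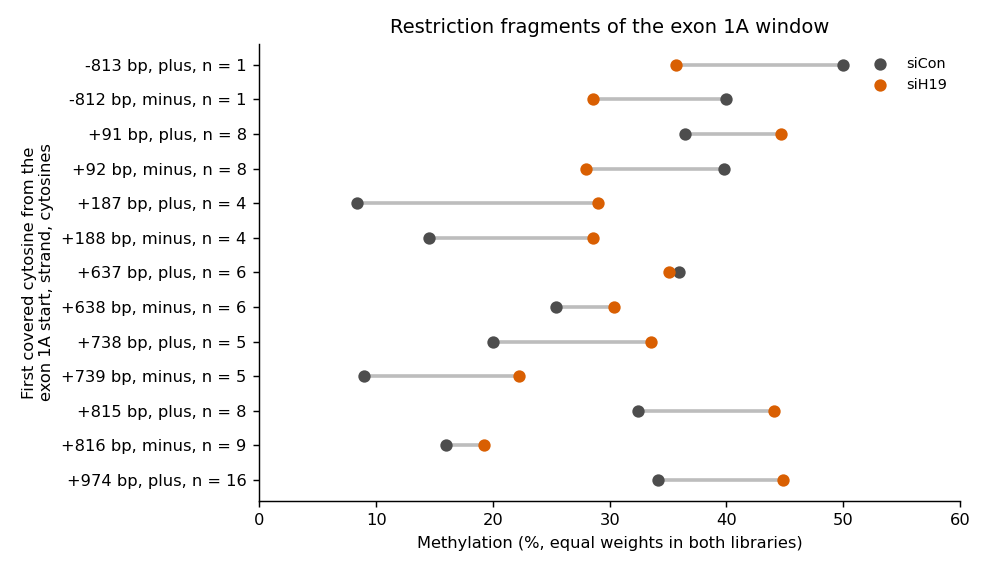
Equal-weight methylation (%, horizontal axis) in siCon and siH19 on each strand of the restriction fragments that begin in the exon 1A window, with the distance of the first covered cytosine from the start, the strand and the number of cytosines. siH19 is higher in 9 and lower in 4 of 13, and the last fragment runs past the end of the window.

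Neighbouring cytosines of a fragment share their reads, so the test counts the same molecule several times, and the intervals summed over cytosines are too narrow. With 1 cytosine kept per fragment and strand, the exon 1A difference was 4.28 points and its adjusted p was 0.985, and 4 of 14142 promoter windows in the genome passed. A read minimum of 20, a window of 500 bp on either side or a quasi-binomial test over cytosines also ended the call, with the difference between 3.44 and 5.59 points.

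**Figure D3:**
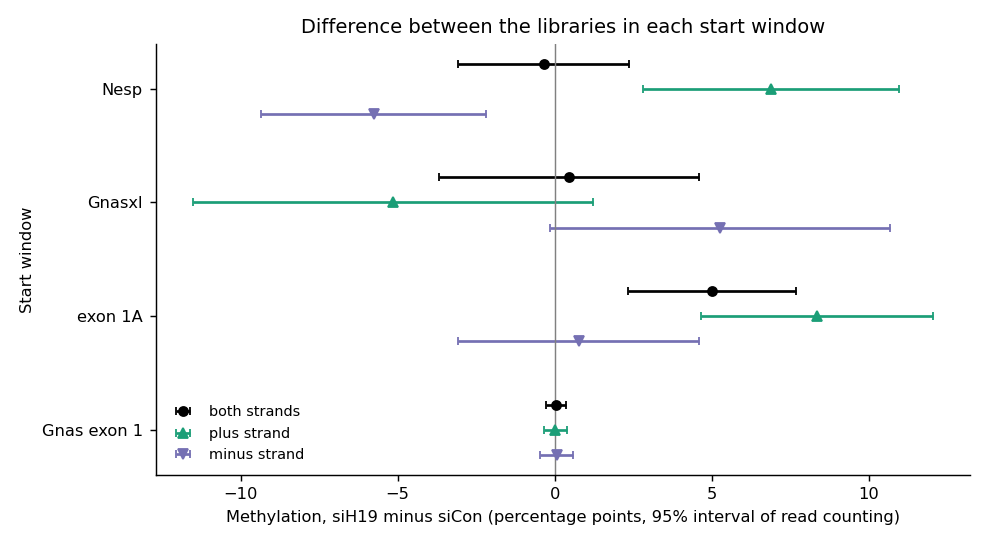
Equal-weight difference in methylation (siH19 minus siCon, percentage points) in the start windows with more than 3 cytosines, over both strands and on each strand. Bars are 95% intervals of read counting. The exon 1A interval lies above 0, and the Nesp strands lie on opposite sides of 0.

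Between exon 1A and Gnas exon 1 the cluster passed from intermediate methylation to almost none. The starts are 2238 bp apart. The 79 cytosines from the exon 1A start to the last cytosine that was at 30% or more in both libraries were at 29.5% and 33.9%. That cytosine was 1028 bp before the exon 1 start (chr2:174328978). Next came 5 minus-strand cytosines of a single fragment, the nearest of them 579 bp before the start, at 14.3% in siCon, with up to 14 reads, and 11.5% in siH19, with up to 40. The cytosine 300 bp before the start (chr2:174329706) was at 0 in both, and 140 of the 147 cytosines from there on were under 10% in both libraries. The fall thus took place within 728 bp in both libraries, a stretch that holds 50 CpGs of which 5 held a member.

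**Figure D4:**
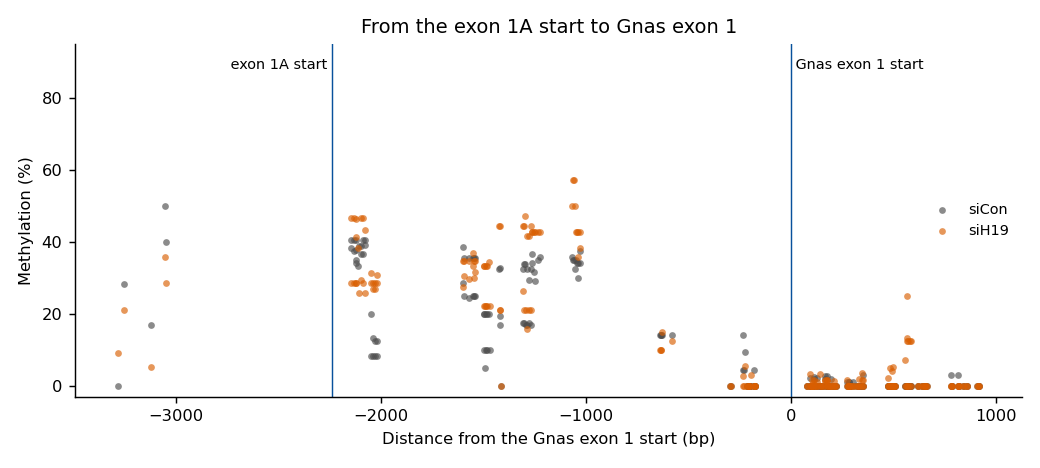
Methylation (%) of each cytosine by its distance from the Gnas exon 1 start (bp), for siCon and siH19. The levels are intermediate up to 1028 bp before the start and mostly 0 from 300 bp before it in both libraries.

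The Gnas exon 1 window was almost free of methylation in both libraries. It had 36 methylated of 5288 reads in siCon, 0.681% (0.492% to 0.941%), and 69 of 7019 in siH19, 0.983% (0.778% to 1.24%). Of its 152 cytosines, 103 had no methylated read in either library. The equal-weight difference was 0.0391 points (-0.278 to 0.356, adjusted p = 1, Cochran-Mantel-Haenszel chi-square test). The longest run under 10% in both libraries had 106 cytosines over 790 bp (chr2:174329778-174330567) at 0.451% and 0.511%, and it took in the exon, whose 67 cytosines were at 0.428% and 0.440%. The highest cytosine in siH19, at 25%, lay on the minus strand of a fragment of 50 bp that held 7 cytosines, with an equal-weight level of 13.7% on up to 16 reads. In siCon that strand had at most 6 reads and no methylated one, so the difference was not detectable at this depth.

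The cut-site cytosines left out of every value above behaved differently. In the Gnas exon 1 window 26 of them were at 50.1% in siCon and 49.2% in siH19, with 10 over 90% and 10 under 10% in siCon. The bases filled in when the fragment ends are repaired fall on such sites, and whether they were all trimmed was not tested.

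Outside the start windows the level stayed intermediate. The 229 cytosines there were at 39.7% and 39.3%, a difference of 0.598 points (-1.05 to 2.25, chi-square test as above, adjusted p = 0.845). Most of them lay near the Nesp and Gnasxl windows, in covered stretches that continue from these, so the value is mainly theirs. Between the Gnasxl first exon and the exon 1A window there were 20, at 38.4% and 36.8%. In the long intron between the Gnasxl first exon and exon 1A, 4 cytosines near chr2:174316921-174317062 were at 63.7% and 64.9%, and 4 near chr2:174313309-174313331 at 16.1% and 23.6%. Beyond the exon 1 window, 20 cytosines were at 49.5% and 56.4%, all but 2 of them outside annotated exons. Over all 580 members the difference was 0.827 points (0.0134 to 1.64, chi-square test, p = 0.0479, adjusted p = 0.270).

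Cytosine by cytosine, no member passed Fisher's exact test after adjustment over the genome, where 0.00648% of cytosines did. The lowest adjusted p was 0.266. At an unadjusted p under 0.05 there were 19 members (3.28%, against 2.53% of all cytosines), of which 10 were higher in siH19 (background 1.34%) and 9 lower (1.19%). A strong change, meaning such a p and a difference of at least 33 points, was found at 5 members (0.862%, against 0.986%), 2 higher (background 0.519%) and 3 lower (0.467%). Intermediate cytosines pass more often, so a closer comparison is with cytosines whose pooled level was 20% to 60%. There 5.23% of 344 members and 5.84% of all such cytosines had a p under 0.05, 1.45% and 3.33% were strongly changed, and the median difference in size was 11.5 and 11.4 points. Depth was not matched, with medians of 29 reads in siCon and 27 in siH19 for these members against 21 and 20 for all such cytosines.

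The 3 lowest p-values with siH19 lower were on the Nesp and Gnasxl exons. At chr2:174285097 on the minus strand, in the 67 bp Nesp fragment, 19 of 38 reads were methylated in siCon and 6 of 52 in siH19, 50% and 11.5% (Fisher's exact p = 9.3e-05). The plus-strand cytosine of that CpG was at 36.0% and 35.4%. At chr2:174285121 on the same strand it was 10 of 19 and 1 of 26 reads, 52.6% and 3.85%. On the Gnasxl exon, plus-strand cytosines at chr2:174299385 and chr2:174299393 had identical counts, 28 of 50 and 33 of 107 reads, 56.0% and 30.8%, while the minus strand of the first went from 19.1% to 34.9% and was itself among the 3 lowest p-values with siH19 higher. The other 2 of those were chr2:174299113 on the minus strand, with 6 of 30 and 33 of 63 reads (20% and 52.4%, Fisher's exact p = 0.00353), and chr2:174284713 on the plus strand in Nesp, at 14.3% and 40.0%. In none of these CpGs did both strands change by a similar amount. Depth was uneven within their fragments. On the minus strand of the 67 bp Nesp fragment chr2:174285097 had 38 and 52 reads and chr2:174285121 had 19 and 26. Along the Gnasxl plus strand chr2:174299385 had 50 and 107 and chr2:174299414 had 25 and 54. Whether the deeper cytosines counted the same molecules more than once was not tested, so their p-values may be too low.

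The spread between strands of a library was set beside the spread between libraries. Strand gaps may be real as well as error, and which they were was not tested. Over the 260 CpGs covered on both strands, the levels of the strands differed by 9.62 points on average in siCon and by 8.92 in siH19. The libraries differed by 9.16 points on the plus strand and 9.83 on the minus strand. Fisher's exact test at p under 0.05 picked 8 and 9 CpGs between strands and 9 and 10 between libraries. The strands moved the same way between libraries at 95 CpGs, opposite ways at 100, and at least 1 of them was unmoved at 65. Differences between the libraries were thus of about the same size as those between strands of the same library.

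The annotated starts of other genes under an imprint set in the egg or the sperm gave a rough scale for these levels. Whether each window takes in the gene's imprinted region was not tested. Of 17 such genes, 15 had at least 5 cytosines, and 10 were at 20% to 60% in both libraries, as were Nesp, Gnasxl and exon 1A. Over all promoter windows that share was 16.0%. The nearest to exon 1A, by the gap in level summed over both libraries, were Peg10, a retrotransposon-derived gene, at 31.9% and 33.7%, and Rasgrf1, an exchange factor of Ras proteins, at 24.6% and 30.4%. The lowest was Inpp5f at 0.561% and 0.460%, and the highest was Nnat at 97.4% in both, each measured at the gene's annotated start. A single start of the list passed the test, Kcnq1ot1, the antisense RNA of the Kcnq1 cluster, at 30.6% and 48.0% with a difference of 16.2 points (6.99 to 25.3, adjusted p = 0.0256, Cochran-Mantel-Haenszel chi-square test). That is 6.67% of the list, beside 5.69% of all promoter windows. The median difference of the list was -0.127 points, beside 0.0885 over all windows.

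**Figure D5:**
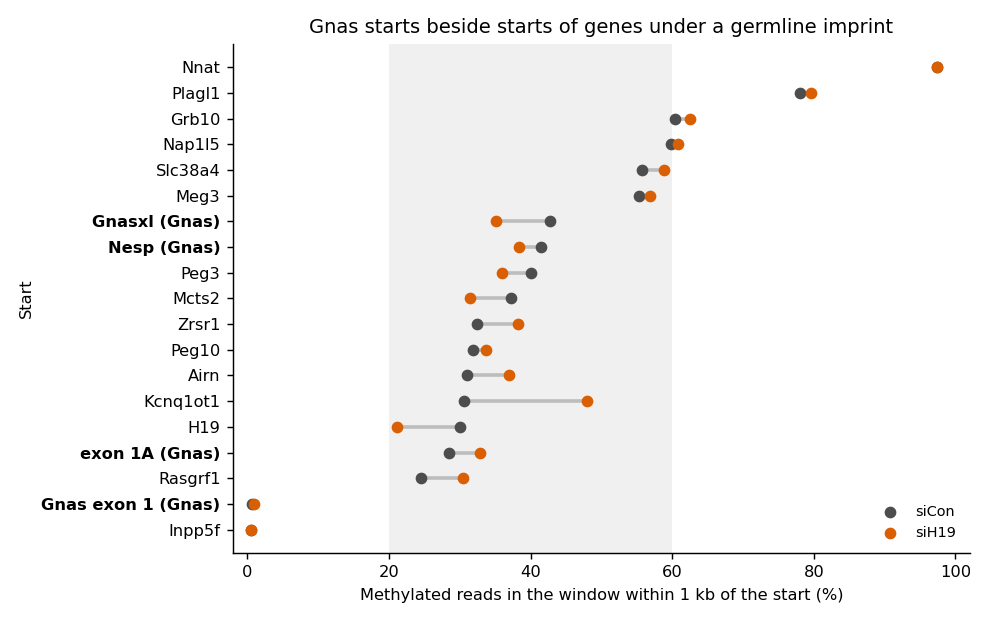
Share of methylated reads (%) within 1 kb of each start in siCon and siH19, for the 4 Gnas starts with more than 3 cytosines (bold) and the annotated starts of 15 genes under a germline imprint. The shaded band runs from 20% to 60%. Nesp, Gnasxl and exon 1A lie in the band in both libraries and Gnas exon 1 lies near 0 beside Inpp5f.

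The neighbours of Gnas on chromosome 2 were at lower levels. Of 9 genes, 7 could be tested, and 3 were under 5% in both libraries. The Cochran-Mantel-Haenszel chi-square test called 3 lower in siH19, against 1.78% of all windows. These were Atp5e, a subunit of mitochondrial ATP synthase, from 2.94% to 0.0885%, Stx16, a vesicle fusion protein, from 5.44% to 2.54%, and Edn3, the peptide endothelin 3, from 29.3% to 26.5%. Those are summed reads, and the equal-weight differences tested were -2.96, -1.72 and -5.20 points in that order. With 1 cytosine kept per fragment and strand, no promoter window in the genome was called lower in siH19. None of these 3 calls was therefore kept. Among genes that work with the Gnas product, the other G protein alpha subunits, adenylyl cyclases, protein kinase A subunits and receptors, 29 of 32 could be tested. Of these, 13 were under 5% in both libraries, as Gnas exon 1 was. In siCon the list ran from Gna12, an alpha subunit, at 0.333% to Adcy4, a cyclase, at 77.7%. Gna13, another alpha subunit, passed the test with siH19 higher, at 0.730% and 1.57%. The list's median difference was 0.0997 points.

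A pair of motifs tied to this kind of imprint was searched for on both strands. TGCCGC is the motif of ZFP57, a zinc finger protein that holds methylation at imprints and binds the methylated form. It occurred 5 times in the Nespas window, 4 times at exon 1A, 2 times each at Nesp and Gnas exon 1 and once at Gnasxl. A pair of the Nespas matches overlapped. Of all 55411 start windows 28.6% held it, 3.72% at least 3 times and 0.594% at least 5 times. The motif holds a CpG, and these shares are not matched for CpG content. The median window had 25 CpGs, against 78 at Nespas and 138 at exon 1A. Its CpG was measured at 2 of the 4 exon 1A matches, where 3 cytosines were at 34.8% and 37.7%. It was also measured at both Gnas exon 1 matches, where 5 cytosines were at 1.71% and 0.723%. A cytosine among those 5, at the last base of its match, belongs to the next CpG. No Nespas match was covered. AANATGGC, the core motif of YY1, occurred 2 times in the Nespas window and once at exon 1A, and 33.6% of start windows held it. This motif holds no CpG, so a match could hold a member only at its end base, and none did. That says nothing of methylation or coverage at these matches.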

How the data were processed

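Reduced representation bisulfite sequencing was done on 1 library each of siCon and siH19 myotubes, grouped by siRNA per the labels. DNA was cut with TaqαI and MspI. The authors aligned reads with Bismark in non-directional mode and trimmed filled-in nucleotides. The submitters' processing notes name mm10 and bcl2fastq 1.8.4. Whether duplicate reads were removed is not given in the sources used here. The deposited tables gave, per CpG cytosine and strand, the methylated and total reads in a text field, and a score, the methylated fraction scaled and rounded down by the authors. Raw counts from the text field were used, unnormalized, and the score matched them in 100% of entries. All 6041258 positions on assembled chromosomes were CpG cytosines of GRCm38. Genes came from GENCODE vM21.

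Cytosines covered 5 or more times in both libraries and outside CCGG and TCGA were kept, with strands apart. Fisher's exact test, two-sided, was applied to each, and regions were compared by a Cochran-Mantel-Haenszel chi-square test stratified by cytosine, with Mantel-Haenszel differences, because reads fell unevenly over cytosines. Adjustment was by Benjamini-Hochberg over all cytosines, or over all promoter windows with at least 5 cytosines plus the member regions. No molecular identifiers were used, so reads may repeat a molecule. The scripts were tested on simulated data. The 4 members whose lowest depth was 5 reads were at 30.8% and 65.0%, and the 15 cytosines just below, at 4 reads, at 24.6% and 50.5%.

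The members and lists were chosen with earlier results of these data known. Named cytosines had the 3 lowest p-values in each direction among those with at least 10 reads in each library. Runs were the longest under 10% or between 30% and 70% in both. Genes of a list were named if called, lowest, highest or nearest to exon 1A. A result of the list of Gnas partners is not reported here. The fragments described one by one were chosen after their values were seen. Alternatives were other read minimums, window widths, strand and cut-site handling, repeats, weights and thresholds. Python 3.11.15, NumPy 2.4.6, SciPy 1.17.1, pandas 2.3.3 and matplotlib 3.10.9 were used.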

Additional observations from a re-analysis of the deposited data

How the results depend on the processing

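The exon 1A difference stayed positive under all 11 alternatives, from 3.44 to 5.59 points. A read minimum of 10, leaving out repeats and giving cytosines to the nearest start only kept the same 70 cytosines, so these could not change it. With those counted, 7 alternatives kept the call. It was lost with a read minimum of 20 (4.19 points, adjusted p = 0.120, Cochran-Mantel-Haenszel chi-square test), with unweighted means and a quasi-binomial test (5.59 points, adjusted p = 0.177), with a window of 500 bp (3.44 points, adjusted p = 0.513) and with 1 cytosine per fragment and strand (4.28 points), added once the data had been seen. Each of these but the quasi-binomial test rests on fewer cytosines, and the cause was otherwise not tested.

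Differences near 0 changed sign. Nesp was at 0.883 points with a read minimum of 20, 0.545 with unweighted means and 4.67 with a 500 bp window. Gnasxl was at -0.674 with a read minimum of 10, -0.955 with a 2 kb window and -7.57 with summed reads. Gnas exon 1 was at -0.112 and -0.106 with read minimums of 10 and 20, -0.0162 with strands summed, -0.421 with cut-site cytosines and -0.0437 with a 500 bp window. With a 2 kb window, which takes in exon 1A cytosines, it was 1.69 points (adjusted p = 0.00106, Cochran-Mantel-Haenszel chi-square test). The gene bodies outside the start windows were at -1.32 with a read minimum of 20 and -0.484 with summed reads, and all members at -2.74 with summed reads, which let uneven depth move the value.

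With cut-site cytosines included, 1 member passed the adjusted Fisher's exact test, the minus-strand cytosine at chr2:174285097. It had 38 and 52 reads, against 19 and 26 at chr2:174285121 on the same fragment strand, and repeated counting was not tested. The 5 strongly changed members became 2 with a read minimum of 20, 2 with strands summed and 13 with a threshold of 25 points. The Nespas window had no cytosine at a read minimum of 10 or 20. No paired analysis was possible because each group had 1 library. Depth limits single cytosines to large differences.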
